A study of Rattus norvegicus with 30 samples.

Results

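The genes described are those of the collagens, the laminin chains, the matrix metalloproteinases and their inhibitors (TIMPs), the small leucine-rich proteoglycans Dcn, Lum, Bgn, Fmod and Ogn, and the glycoproteins Fn1 and Sparc. They were picked by gene symbol among the 22523 probes of an Illumina BeadChip. Of 60 probes for 60 genes with such symbols, 36 passed a filter that kept a probe when its value was above the array median (7.02 on the log2 scale) on at least 5 arrays, as did 13308 probes in all. The 24 others had means of 6.71 to 6.89 and are not followed further: Col2a1, Col4a3, Col4a5, Col5a3, Col6a2, Col6a4, Col13a1, Col17a1, Col23a1, Lamc3, Mmp1, Mmp2, Mmp3, Mmp7, Mmp8, Mmp10, Mmp11, Mmp12, Mmp19, Mmp20, Mmp21, Mmp23, Mmp27 and Mmp28. At the edge of the filter, Mmp15 was above the median on 6 arrays and Col13a1 and Mmp23 on 4.

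RNA came from the amygdala, the brain region that processes threat, of 30 adult Sprague Dawley rats, with 1 array per rat. Rats had been exposed to the scent of a predator and were classed by their later behaviour as extreme or minimal responders, and control rats were not exposed but went through the behavioural tests. This gave 6 groups of 5 rats: male extreme, male minimal, male control, female extreme, female minimal and female control. All groups shared strain, tissue and testing, and each array has its own rat identifier, so replicates were separate animals. Of the marker lists of tissue, 10 of 11 neuronal genes and 8 of 10 genes of striatum and central amygdala passed the filter. So did 7 of 9 genes of thalamus, 8 of 11 of hypothalamus and 10 of 14 of choroid plexus. Of all 22523 probes, 13308 passed, so these counts do not show which tissues the samples held.

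Brain matrix is unusual in holding little fibrillar collagen. Fibrillar collagens and small leucine-rich proteoglycans are made by fibroblasts of the meninges and of the larger vessels, while collagen IV and laminins form the basement membrane around endothelial cells, pericytes and astrocyte endfeet. Metalloproteinases cut matrix proteins and TIMPs inhibit them, and Sparc is a collagen-binding protein that glia and endothelial cells secrete. In bulk tissue, fewer cells of a type and less RNA per cell cannot be told apart.

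The promoters of 4 genes on which the results turn are shown for orientation. Col1a2 and Timp1 stand for the fibrous genes that varied together from rat to rat, and Sparc and Col4a1 for those that differed between the sexes. Each window runs from 250 bases before to 50 after a RefSeq start in the GRCr8 build. Capitals mark matches on either strand to CCAAT (the CCAAT box), TATAAA (the TATA box), GGGCGG (the GC box) or TGANTCA (the AP-1 site). The windows lie at chr4:33518307-33518606 on the plus strand for Col1a2, chrX:3771073-3771372 on the minus strand for Timp1, chr10:40038767-40039066 on the minus strand for Sparc and chr16:84885347-84885646 on the plus strand for Col4a1. The Timp1 window lies inside the span of that gene, chrX:3766509-3772578, so its start is not the outer end of the gene.
Col1a2: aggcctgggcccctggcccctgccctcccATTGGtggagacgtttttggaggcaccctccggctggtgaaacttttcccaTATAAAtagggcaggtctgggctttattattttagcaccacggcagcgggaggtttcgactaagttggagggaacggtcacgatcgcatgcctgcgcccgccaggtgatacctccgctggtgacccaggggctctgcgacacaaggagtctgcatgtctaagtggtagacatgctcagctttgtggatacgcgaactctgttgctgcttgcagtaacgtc
Timp1: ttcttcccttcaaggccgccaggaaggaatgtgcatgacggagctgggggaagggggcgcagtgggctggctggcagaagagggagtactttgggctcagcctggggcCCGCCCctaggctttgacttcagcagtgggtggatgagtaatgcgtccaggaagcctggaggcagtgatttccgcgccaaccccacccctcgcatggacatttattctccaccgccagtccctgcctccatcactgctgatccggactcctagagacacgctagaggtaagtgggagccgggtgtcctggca
Sparc: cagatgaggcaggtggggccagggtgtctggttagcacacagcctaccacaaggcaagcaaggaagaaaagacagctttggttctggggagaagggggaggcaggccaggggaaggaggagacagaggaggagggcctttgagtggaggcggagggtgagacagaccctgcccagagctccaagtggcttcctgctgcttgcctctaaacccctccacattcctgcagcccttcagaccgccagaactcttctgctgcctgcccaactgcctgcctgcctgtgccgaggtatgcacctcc
Col4a1: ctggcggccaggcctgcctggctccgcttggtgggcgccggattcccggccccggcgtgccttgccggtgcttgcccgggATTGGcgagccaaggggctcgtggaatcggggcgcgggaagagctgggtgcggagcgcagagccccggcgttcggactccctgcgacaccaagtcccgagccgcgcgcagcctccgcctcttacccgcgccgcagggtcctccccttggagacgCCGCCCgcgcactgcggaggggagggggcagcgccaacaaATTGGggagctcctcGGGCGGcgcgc
The Col1a2 window held a TATA box and a CCAAT box, the Timp1 window a GC box, the Col4a1 window 2 CCAAT and 2 GC boxes, and the Sparc window none of the 4. The motifs do not overlap one another in these windows. Windows were at hand for 25 of the 36 genes, of which 7 held a CCAAT box, 3 a TATA box, 13 a GC box and 2 an AP-1 site. Over all 27457 promoter windows the shares were 37.7% for the CCAAT box, 14.3% for the TATA box, 34.9% for the GC box and 7.33% for the AP-1 site. The Col4a1 window overlaps that of Col4a2, on the opposite strand, by 176 bases, and Col4a2 was not analysed here.

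Values below are the deposited log2 intensities. Fold changes are log2 differences ± the standard error (SE) of 1 limma fit over all 30 arrays, p-values were adjusted over all 13308 probes of a comparison, and the threshold was 0.05. The number of arrays limits the precision. The arrays also parted into states that follow the groups in large part, and the origin of which is not given. The parting was by 8 probes, among them Rpl37l1, Rpl7 and Rpl23, with 16 arrays against 14 and gaps of at least 1.02. All male control arrays lay in the higher state and all male extreme and female control arrays in the lower one, so the state cannot be told apart from male extreme against control. Of female extreme arrays 4 lay in the higher state, of female minimal arrays 3 and of male minimal arrays 4. The state is thus also largely tied to female exposed against control and to the sex difference of exposed minus control. With the state as a covariate, calls over all probes fell from 597 to 14 for that sex difference. They fell from 914 to 645 for female exposed minus control and from 106 to 0 for male extreme minus control.

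The fibrous matrix genes varied widely among rats of the same group. Col1a2, the alpha 2 chain of type I collagen, read 12.04, 9.55, 9.93, 11.33 and 11.48 in male extreme rats, 10.66, 12.57, 10.21, 11.90 and 11.48 in male minimal rats and 12.02, 9.65, 9.64, 11.72 and 9.77 in male control rats. In females it read 9.76, 11.27, 9.42, 9.56 and 9.36 in extreme, 9.33, 9.69, 9.63, 11.06 and 11.33 in minimal and 12.14, 11.74, 9.89, 9.16 and 10.64 in control rats. Every group held both high and low rats, and all groups overlapped. The lowest and highest rats differed 10.6-fold, the SD within groups was 1.04, and the group means spanned 9.87 ± 0.79 (female extreme) to 11.36 ± 0.95 (male minimal; SD, n = 5).

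Ogn, the small proteoglycan osteoglycin, read 10.57, 8.13, 8.46, 9.79 and 9.63 in male extreme, 8.86, 11.01, 8.68, 10.61 and 10.16 in male minimal and 10.63, 8.51, 8.31, 10.42 and 8.40 in male control rats. Its female values were 8.68, 9.54, 8.80, 8.31 and 8.19 in extreme, 8.14, 8.89, 8.53, 9.29 and 9.63 in minimal and 10.82, 10.23, 8.67, 8.07 and 8.86 in control rats. The rats that were high for Col1a2 were mostly high for Ogn too, and the range over all rats was 7.67-fold. The collagen-binding proteoglycan fibromodulin, Fmod, ranged 3.72-fold.

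Timp1, a secreted inhibitor of metalloproteinases, read 8.90, 7.82, 7.90, 8.72 and 8.57 in male extreme, 7.80, 9.52, 7.91, 9.13 and 8.97 in male minimal and 9.28, 7.76, 7.99, 9.57 and 7.93 in male control rats. Female values of Timp1 were 8.22, 8.51, 7.81, 7.89 and 7.95 in female extreme, 7.80, 7.35, 7.87, 8.10 and 8.50 in female minimal and 9.21, 8.79, 7.75, 7.62 and 7.68 in female control rats. The groups overlapped, the within-group SD was 0.63 and the range was 4.64-fold. Decorin, Dcn, which binds collagen fibrils and growth factors, read 10.05, 8.67, 8.68, 9.51 and 9.10 in male extreme, 9.01, 10.30, 9.03, 10.02 and 9.17 in male minimal and 10.23, 8.92, 9.18, 9.80 and 8.51 in male control rats. Among females Dcn was at 8.69, 9.25, 8.99, 9.13 and 9.46 in female extreme, 8.72, 9.10, 9.59, 8.88 and 9.65 in female minimal and 9.79, 9.56, 8.46, 9.01 and 8.95 in female control rats. Its range was 3.57-fold, and male control, male minimal and male extreme each held a rat above 10. Lumican, Lum, a proteoglycan that spaces collagen fibrils, read 7.94, 7.53, 7.71, 7.95 and 7.74 in male extreme, 7.61, 9.12, 7.66, 8.43 and 8.25 in male minimal and 8.92, 7.99, 8.10, 8.51 and 7.87 in male control rats. For females the Lum values were 7.76, 7.87, 8.03, 7.78 and 8.80 in female extreme, 7.42, 8.09, 8.29, 8.03 and 8.65 in female minimal and 8.10, 8.01, 7.65, 7.49 and 7.96 in female control rats. All groups overlapped here too, with a range of 3.25-fold.

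The type III chain Col3a1 read 7.85, 7.08, 6.87, 7.39 and 7.18 in male extreme, 7.27, 7.73, 6.90, 7.59 and 7.50 in male minimal and 7.70, 7.0, 6.95, 7.41 and 7.04 in male control rats. In the female groups Col3a1 stood at 7.05, 7.22, 7.09, 6.94 and 6.83 in female extreme, 6.78, 6.84, 7.0, 7.38 and 7.25 in female minimal and 7.56, 7.24, 6.79, 6.74 and 7.0 in female control rats. Its values, near the array median in many rats, overlapped among all groups. Col1a1, which joins Col1a2 in type I collagen, read 7.09, 6.95, 6.84, 7.16 and 7.15 in male extreme, 6.89, 7.61, 7.07, 7.34 and 7.12 in male minimal and 7.37, 7.03, 6.87, 7.09 and 6.79 in male control rats. Col1a1 values of females were 7.12, 7.81, 7.09, 7.06 and 6.77 in female extreme, 7.10, 6.91, 7.02, 7.17 and 7.19 in female minimal and 7.65, 7.54, 7.03, 6.88 and 7.13 in female control rats. Female extreme 2 had the highest value of the 30 rats. Biglycan, Bgn, a proteoglycan close to decorin, read 7.22, 7.19, 7.29, 7.20 and 7.34 in male extreme, 7.08, 7.62, 7.16, 7.42 and 7.28 in male minimal and 7.37, 7.28, 7.22, 7.56 and 7.23 in male control rats. The corresponding Bgn values in females were 7.32, 7.35, 7.14, 7.16 and 7.11 in female extreme, 7.12, 7.17, 7.18, 7.23 and 7.20 in female minimal and 7.39, 7.21, 7.17, 7.08 and 7.21 in female control rats. Male minimal 2 was the highest rat for Bgn, as it was for Col1a2 and Ogn, and the groups overlapped.

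Of the laminin chains, Lamb2 varied more than the 3 others. Lamb2, a chain of vascular and pial basement membrane, read 8.72, 8.46, 8.64, 8.80 and 8.85 in male extreme, 8.28, 9.38, 8.85, 8.94 and 8.96 in male minimal and 8.98, 8.65, 8.61, 9.41 and 8.26 in male control rats. Its female readings were 8.94, 8.52, 8.96, 8.56 and 8.49 in female extreme, 8.66, 8.75, 8.37, 8.82 and 9.00 in female minimal and 9.18, 9.18, 8.87, 8.72 and 9.11 in female control rats. All groups overlapped, with a range of 2.23-fold. Lamc1, the gamma chain of most laminins, read 7.14, 7.0, 6.89, 7.03 and 6.86 in male extreme, 7.11, 7.09, 6.88, 7.08 and 6.95 in male minimal and 7.04, 7.10, 7.17, 7.24 and 6.98 in male control rats. Females had Lamc1 values of 6.98, 7.13, 7.08, 7.09 and 6.95 in female extreme, 6.98, 6.93, 7.04, 7.11 and 7.04 in female minimal and 6.96, 6.89, 7.0, 6.90 and 7.0 in female control rats. These lay within 1.30-fold of each other, and Lama1 and Lamb3 ranged 1.40-fold and 1.32-fold. Lamc1 (mean 7.02), Lama1 (6.94) and Lamb3 (6.99) lay at or just below the array median. Their narrow ranges therefore say little on how far these genes vary.

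Among inhibitors and proteases, Timp2 read 9.14, 9.11, 9.06, 8.87 and 9.03 in male extreme, 9.01, 8.50, 8.53, 8.51 and 8.50 in male minimal and 8.53, 8.54, 8.94, 8.56 and 8.83 in male control rats. Timp2 in females was 8.14, 8.67, 8.69, 8.63 and 8.44 in female extreme, 8.45, 9.56, 8.87, 8.62 and 8.28 in female minimal and 9.20, 9.01, 8.39, 8.84 and 8.83 in female control rats. The male extreme values lay close together and those of female minimal were spread widely. Timp3, the inhibitor that binds to matrix, read 7.14, 7.30, 7.12, 7.46 and 7.38 in male extreme, 6.90, 7.19, 7.22, 7.19 and 7.18 in male minimal and 7.15, 6.97, 7.12, 7.30 and 7.06 in male control rats. Females read 7.09, 7.01, 7.29, 7.09 and 7.15 in female extreme, 6.97, 7.40, 7.25, 7.19 and 7.13 in female minimal and 7.31, 7.09, 7.32, 7.31 and 7.28 in female control rats for Timp3. Its groups overlapped within a 1.47-fold range. Mmp14, a membrane-bound metalloproteinase, read 8.21, 7.92, 7.76, 7.80 and 7.62 in male extreme, 7.88, 8.81, 8.02, 8.57 and 8.09 in male minimal and 8.52, 7.79, 8.12, 8.14 and 7.67 in male control rats. Female Mmp14 values were 8.44, 8.85, 8.45, 8.11 and 8.23 in female extreme, 7.96, 7.64, 7.88, 8.18 and 8.35 in female minimal and 8.72, 8.38, 7.88, 7.79 and 8.32 in female control rats. The groups overlapped, with a range of 2.34-fold, and Fn1, fibronectin, ranged 4.17-fold.

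**Figure D1:**
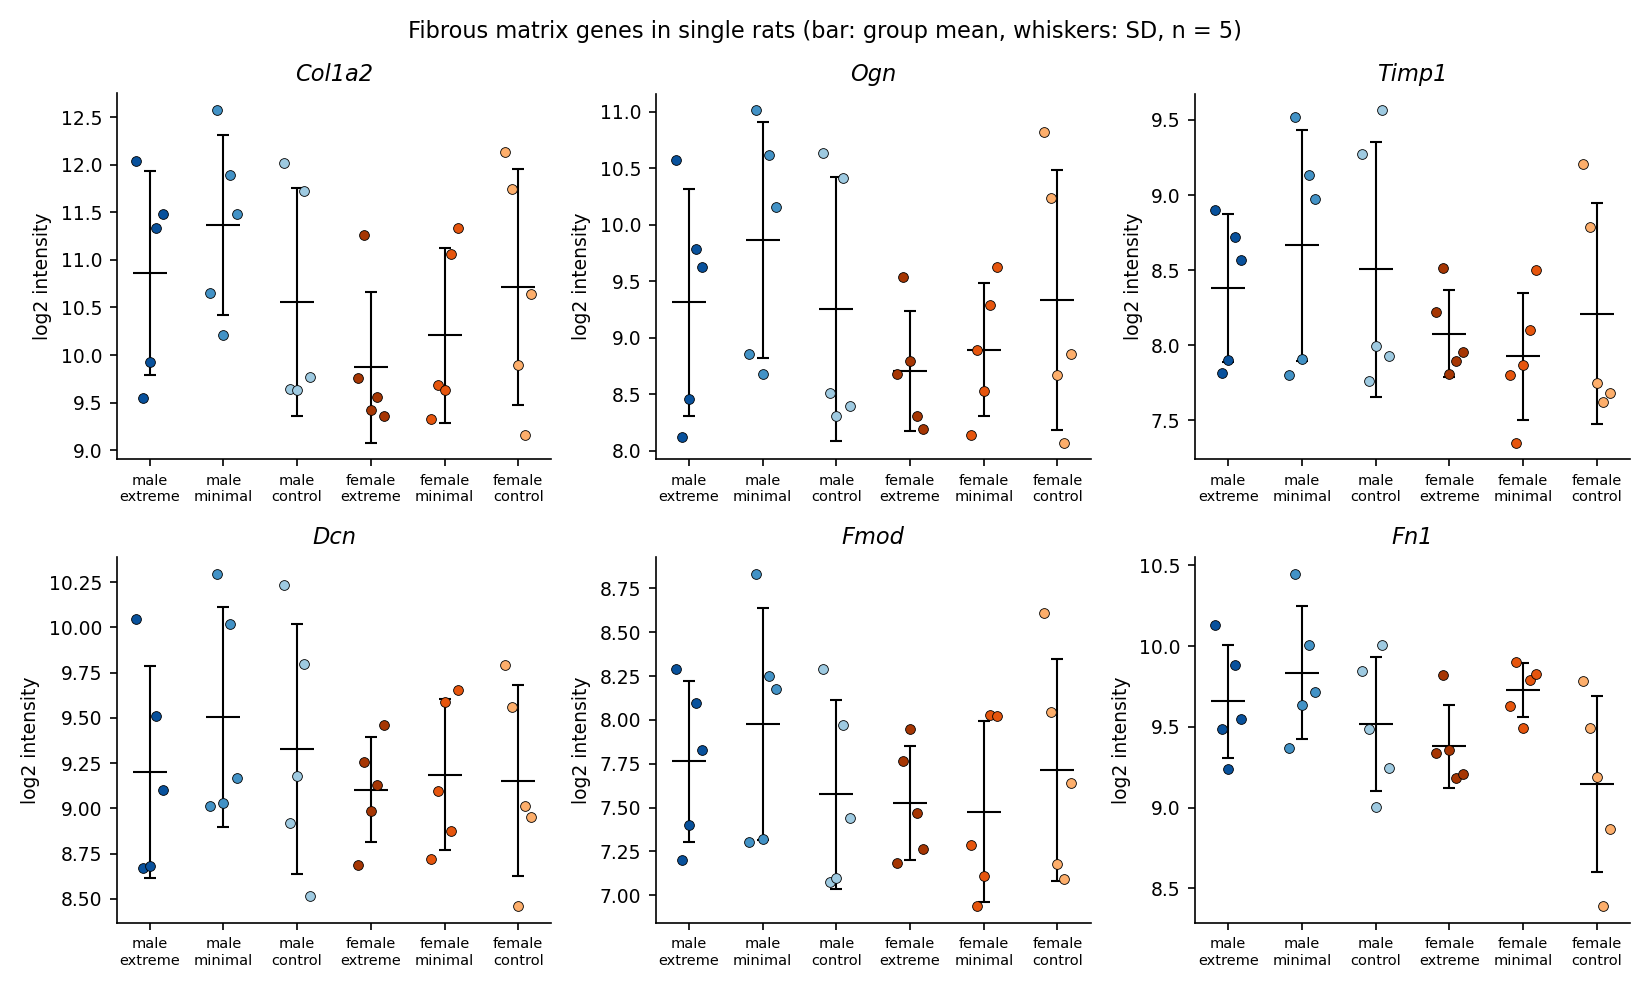
Log2 intensity of 6 fibrous matrix genes in each rat (points) by group, with the group mean (bar) and SD (whiskers, n = 5). Col1a2 spans 9.16 to 12.57 over the 30 rats, with high and low rats in each group. Some groups are narrow for other genes, such as female minimal for Fn1 (9.49 to 9.90).

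Most of the other genes moved within narrower limits. The fibrillar chains Col5a1 and Col5a2, which regulate fibril size, averaged 7.41 and 7.61 and ranged 2.65-fold and 1.96-fold. Col6a1, a chain of the beaded microfibril, averaged 7.93 with a 2.76-fold range, and Col8a1, a network collagen of vessels, averaged 7.34 with a 2.22-fold range. Means lay within 0.35 of the array median for Col18a1 (7.35), Col14a1 (7.06), Col7a1 (6.96), Col4a4 (6.96), Lama1 (6.94), Lamb3 (6.99), Mmp9 (7.25), Mmp13 (6.94) and Mmp15 (6.91), with ranges of 1.21-fold to 1.72-fold. Mmp16, a membrane-type metalloproteinase, averaged 7.87 with a 2.12-fold range. Of the 36 genes, 8 would not have passed a filter on the mean over all arrays.

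Genes of the fibrous group varied together. Correlations were computed on deviations from the group means over 30 arrays, with p-values from 100000 permutations within groups, adjusted over 10 pairs. Col1a2 followed Col3a1, the type III collagen chain that forms mixed fibrils with type I, at r = 0.91 (rho = 0.93, permutation p = 1e-05 for both, the smallest they can give, adjusted p = 3.33e-05 and 5e-05). Without the 2 arrays farthest from the median, r was 0.89. Within the lower array state it was 0.87 (14 arrays) and within the higher 0.94 (16 arrays). Col1a1 and Col1a2, the chains of 1 trimer, had r = 0.82, Dcn and Ogn 0.81, Dcn and Lum 0.80, Dcn and Col1a2 0.75 and Col5a1 and Col5a2 0.58, with adjusted permutation p between 3.33e-05 and 0.0016. The 4 other pairs did not pass: Lamb2 and Lamc1 (r = 0.16), Timp2 and Timp3 (0.08), Sparc and Col4a1 (0.29) and Dcn and Col4a1 (0.01), with adjusted permutation p of 0.231 to 0.955. Lamc1 averaged 7.02, at the array median, so its pair says little on whether the 2 laminin chains vary together.

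**Figure D2:**
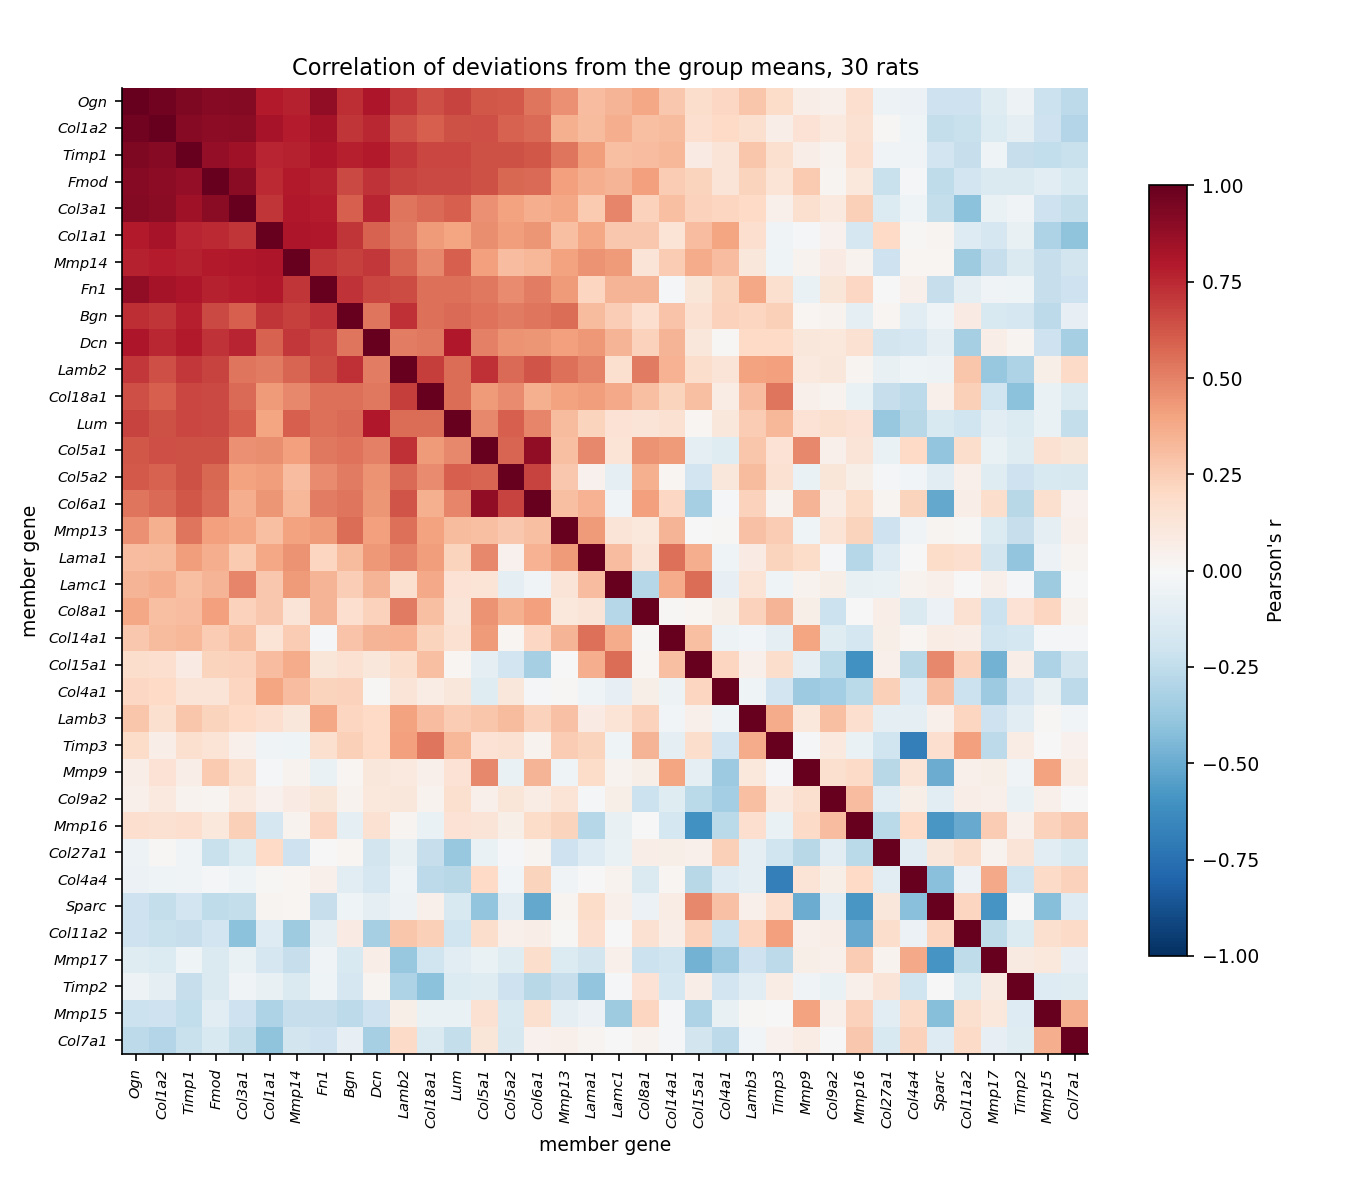
Pearson's r between the 36 genes (rows and columns) over 30 rats, on deviations from the group means, ordered by their correlation with the meningeal marker mean. A block of high values joins Ogn, Col1a2, Timp1, Fmod, Col3a1, Col1a1, Mmp14 and Fn1, while Sparc, Col4a1 and Mmp17 lie outside it.

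Meningeal fibroblast content was followed with 14 measured markers that are not matrix genes of the group (of 21 listed), among them the retinoic acid enzyme gene Aldh1a2, Crabp2, the transporters Slc6a13, Slc22a6 and Slc22a8, Igf2 and Ptgds. The 14 also include Mgp, which is outside the group but is itself a gene of a matrix protein. Some markers are shared with other cells, since Ptgds is also made by oligodendrocytes and Igf2 by the choroid plexus. Their mean, centred on 0, varied among rats of each group, from -0.51 to 0.30 in male extreme, -0.34 to 0.88 in male minimal and -0.47 to 0.68 in male control rats. In females it ranged from -0.56 to 0.32 in extreme, -0.44 to 0.39 in minimal and -0.50 to 0.72 in control rats. None of the 78 differences between groups within a sex, over 13 marker lists, passed an exact permutation test after adjustment. With 5 rats a group the smallest p possible was 0.00794, so at least 13 of the 78 tests had to reach it for any to pass, and these tests say little on whether the lists differed.

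Of the 36 genes, 15 correlated with the meningeal mean beyond the adjusted threshold over 468 correlations (36 genes with 13 marker lists, a comparison chosen after the values were seen), and all 15 were positive. Ogn had r = 0.96 and rho = 0.95, Col1a2 0.96 and 0.94, Timp1 0.94 and 0.94, Fmod 0.93 and 0.92 and Col3a1 0.90 and 0.89, each with permutation p = 1e-05 for both, the smallest they can give, and adjusted p = 0.000425 for r and 0.00052 for rho. Without the 2 farthest arrays Ogn had r = 0.95, and r = 0.93 and 0.99 within the lower and higher array states. Next in order were Col1a1 (0.83), Mmp14 (0.82), Fn1 (0.81), Bgn (0.78), Dcn (0.75), Lamb2 (0.72), Col18a1 (0.71), Lum (0.66), Col5a1 (0.61) and Col5a2 (0.61). Adding the meningeal mean to the fit took up 91.9% of the within-group variance of Ogn, 91.5% of that of Col1a2 and 88.2% of that of Timp1, but 1.71% for Sparc, 5.64% for Col4a1 and 2.89% for Mmp17.

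Vascular markers went mostly with genes that also followed the meningeal mean, namely all 3 endothelial genes below and 4 of the 5 positive mural ones, Lama1 being the exception. The endothelial mean (12 of 19 markers) correlated with Col18a1, a vascular basement membrane collagen and the source of endostatin (r = 0.64), Lamb2 (0.63) and Fn1 (0.62), and for Lamb2 rho did not pass (adjusted permutation p = 0.0727). The mural mean (8 of 14 markers of pericytes and smooth muscle) correlated with Col18a1 (0.72), Lamb2 (0.68), Bgn (0.66), Lama1 (0.61) and Col1a1 (0.57), and inversely with Timp2 (-0.46). Col4a1, the main chain of vascular basement membrane, had r = 0.33 with the endothelial and 0.26 with the mural mean, and neither passed (adjusted permutation p = 0.299 and 0.425). Markers of red blood cells correlated with Col1a1 (0.68) and Bgn (0.50). In the oligodendrocyte list, Col6a1 (-0.83), Col5a1 (-0.76) and Col5a2 (-0.58) ran opposite to the markers and Sparc ran with them (0.63).

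**Figure D3:**
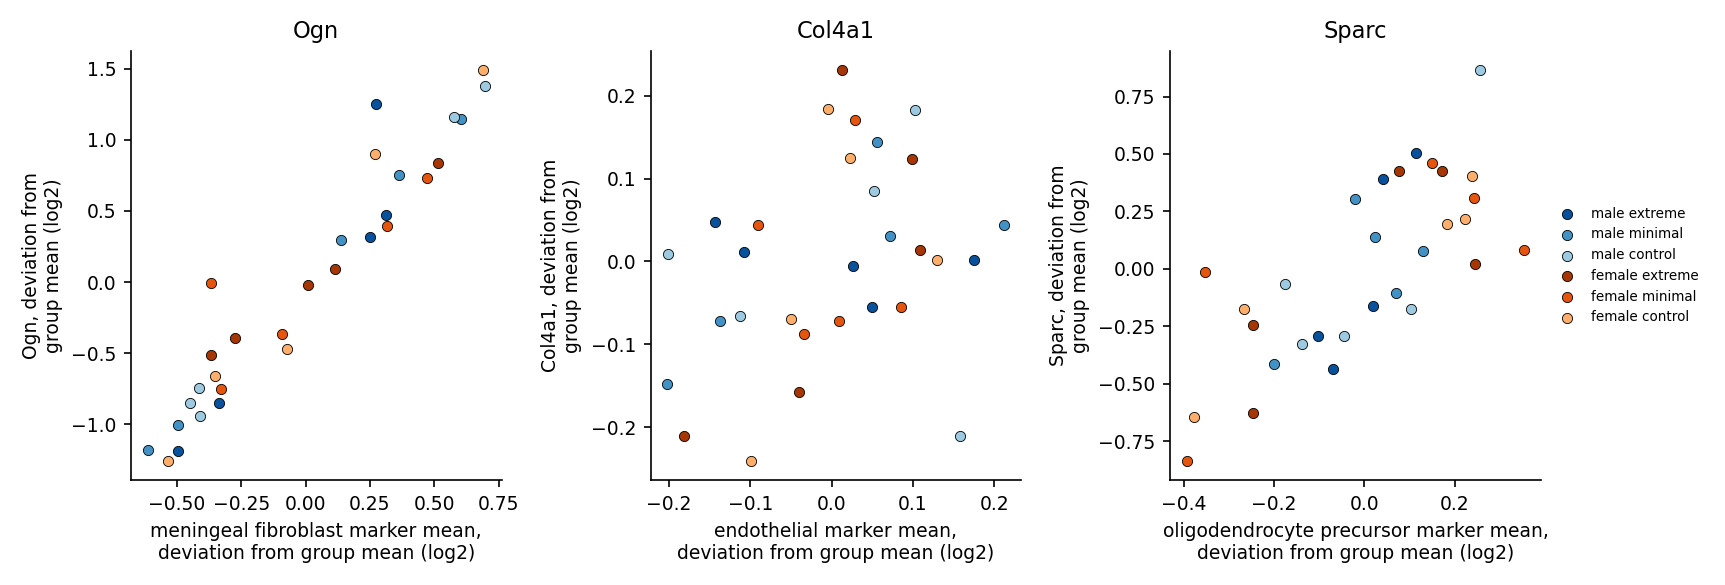
Deviation from the group mean of Ogn, Col4a1 and Sparc (vertical, log2) against that of the meningeal, endothelial and oligodendrocyte precursor marker means (horizontal, log2), 1 point per rat. Points lie along a line for Ogn (r = 0.96), spread for Col4a1 (r = 0.33) and rise for Sparc (r = 0.75).

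None of the 36 genes passed the threshold for predator scent or response class within a sex, by limma. For the genes of widest spread this says little, as the SE was 0.62 for Col1a2 in female extreme minus minimal. In females, 0 of 36 passed for exposed (extreme and minimal) against control rats, where 6.87% of all probes passed, and 4 had an unadjusted p under 0.05, as did 20.6% of all probes. Likewise 0 passed for female extreme against control (6.53% of all probes; unadjusted, 3 genes and 20.7%), female minimal against control (1.98%; unadjusted, 2 genes and 15.8%) and female extreme against minimal (0.128%; unadjusted, 5 genes and 9.48%). In males, 0 passed for exposed against control (0% of all probes, with 0 genes and 9.37% unadjusted), extreme against control (0.797%, with 2 genes and 13.8% unadjusted), minimal against control (0%, with 0 genes and 5.15% unadjusted) and extreme against minimal (0%, with 2 genes and 9.99% unadjusted). The shares over all probes depend on the residual spread that the sexes share in this fit. In fits of 1 sex only, 53, 350, 0 and 76 probes passed in these male comparisons, in that order, against 0, 106, 0 and 0. In the matching female comparisons 352, 327, 70 and 7 passed, against 914, 869, 263 and 17. The median log2 difference of the 36 genes was -0.08 in exposed females and 0.02 in exposed males, where the medians over all probes were 0.00 in females and -0.01 in males. The tests of a difference between the sexes gave 0 of 36 for exposed minus control (4.49% of all probes, with 2 genes and 20.2% unadjusted) and 0 of 36 for extreme minus minimal (0.0526%, with 3 genes and 11.8% unadjusted). The exposed comparisons share their control rats with the extreme and minimal ones.

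Col4a1 came nearest, in females. It read 8.35, 8.24, 8.13, 7.96 and 7.90 in female extreme, 7.62, 7.66, 7.88, 7.64 and 7.76 in female minimal and 7.79, 8.04, 7.86, 7.61 and 7.98 in female control rats. All 5 extreme rats were above all 5 minimal rats, and 3 of them above all controls. The share of all probes for which these groups did not overlap was not computed, so this parting has no background beside it. The difference of extreme from minimal was 0.40 ± 0.09 (adjusted p = 0.0525), and 0.26 ± 0.09 from control (adjusted p = 0.0687, or 0.0419 without female extreme 4, 0.0341 without female extreme 5 and up to 0.193 without another array, where the difference was as low as 0.20). Same-numbered arrays of female extreme and minimal varied together, and blocking by replicate number gave an adjusted p of 0.042 for extreme minus minimal. The number is only the order in which the arrays of a group are listed, and the labels give no pairing of these rats. The block was picked from the same values and spans all groups, so this p is no independent support. The adjusted p of extreme minus minimal was also under the threshold without female minimal 3 (0.0358), female extreme 4 (0.0317) or female extreme 5 (0.0203). It was up to 0.16 without another array. In males Col4a1 read 7.58, 7.64, 7.60, 7.59 and 7.53 in extreme, 7.51, 7.70, 7.59, 7.69 and 7.80 in minimal and 7.69, 7.79, 7.54, 7.39 and 7.61 in control rats, all overlapping. The test of the difference between the sexes in extreme minus minimal gave -0.47 ± 0.12 (adjusted p = 0.13).

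Among the proteases, Mmp17, a membrane-anchored metalloproteinase expressed in brain, read 7.11, 7.01, 7.0, 7.34 and 7.42 in female extreme, 7.17, 6.94, 7.36, 7.16 and 6.91 in female minimal and 7.69, 7.48, 7.47, 7.49 and 7.07 in female control rats. Control 5 lay among the exposed rats and the other controls above them. Exposed minus control was -0.30 ± 0.10 (adjusted p = 0.0645) and the test of the difference between the sexes gave 0.45 ± 0.14 (adjusted p = 0.06). Minimal minus control was -0.34 ± 0.11 (adjusted p = 0.126). Without female control 5 these were -0.39 (adjusted p = 0.0173), 0.54 (0.0217) and -0.43 (0.0484). The exposed difference also passed without female minimal 3 (0.0399), female extreme 4 (0.0494) or female extreme 5 (0.0416), and the sex difference without female minimal 3 (0.0417), female extreme 5 (0.0433) or male minimal 5 (0.039). Without other arrays the adjusted p reached 0.22 for the exposed difference, which was then as small as -0.24, 0.277 for minimal minus control and 0.14 for the sex difference. The array state is largely tied to the female exposed difference and to this sex difference. Mmp14 in extreme minus minimal was -0.41 ± 0.19 in males and 0.41 ± 0.19 in females, and neither passed (adjusted p = 0.477 and 0.515). Timp2, which also takes part in activating Mmp2, was at 0.43 ± 0.17 in male extreme minus minimal (adjusted p = 0.372).

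With the meningeal marker mean as a covariate, in a fit chosen after the values were seen, Fn1 passed in exposed against control females. It read 9.34, 9.82, 9.35, 9.18 and 9.21 in female extreme, 9.63, 9.90, 9.49, 9.79 and 9.83 in female minimal and 9.78, 9.50, 9.19, 8.39 and 8.87 in female control rats. The groups overlapped, the minimal rats lay in the upper part and controls 4 and 5 lowest. Exposed minus control was 0.41 ± 0.19 without the meningeal mean (adjusted p = 0.229) and 0.52 ± 0.12 with it (adjusted p = 0.00963), where 6.66% of all probes passed. Minimal minus control was 0.58 ± 0.23 (0.187) and 0.65 ± 0.14 (0.0109), against 2.07% of all probes, while extreme minus control did not pass with the meningeal mean (0.39 ± 0.14, adjusted p = 0.0984). In exposed minus control males it was 0.13 ± 0.12 with the meningeal mean (adjusted p = 0.8), and the test of the sex difference gave -0.39 ± 0.17 (adjusted p = 0.196).

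**Figure D4:**
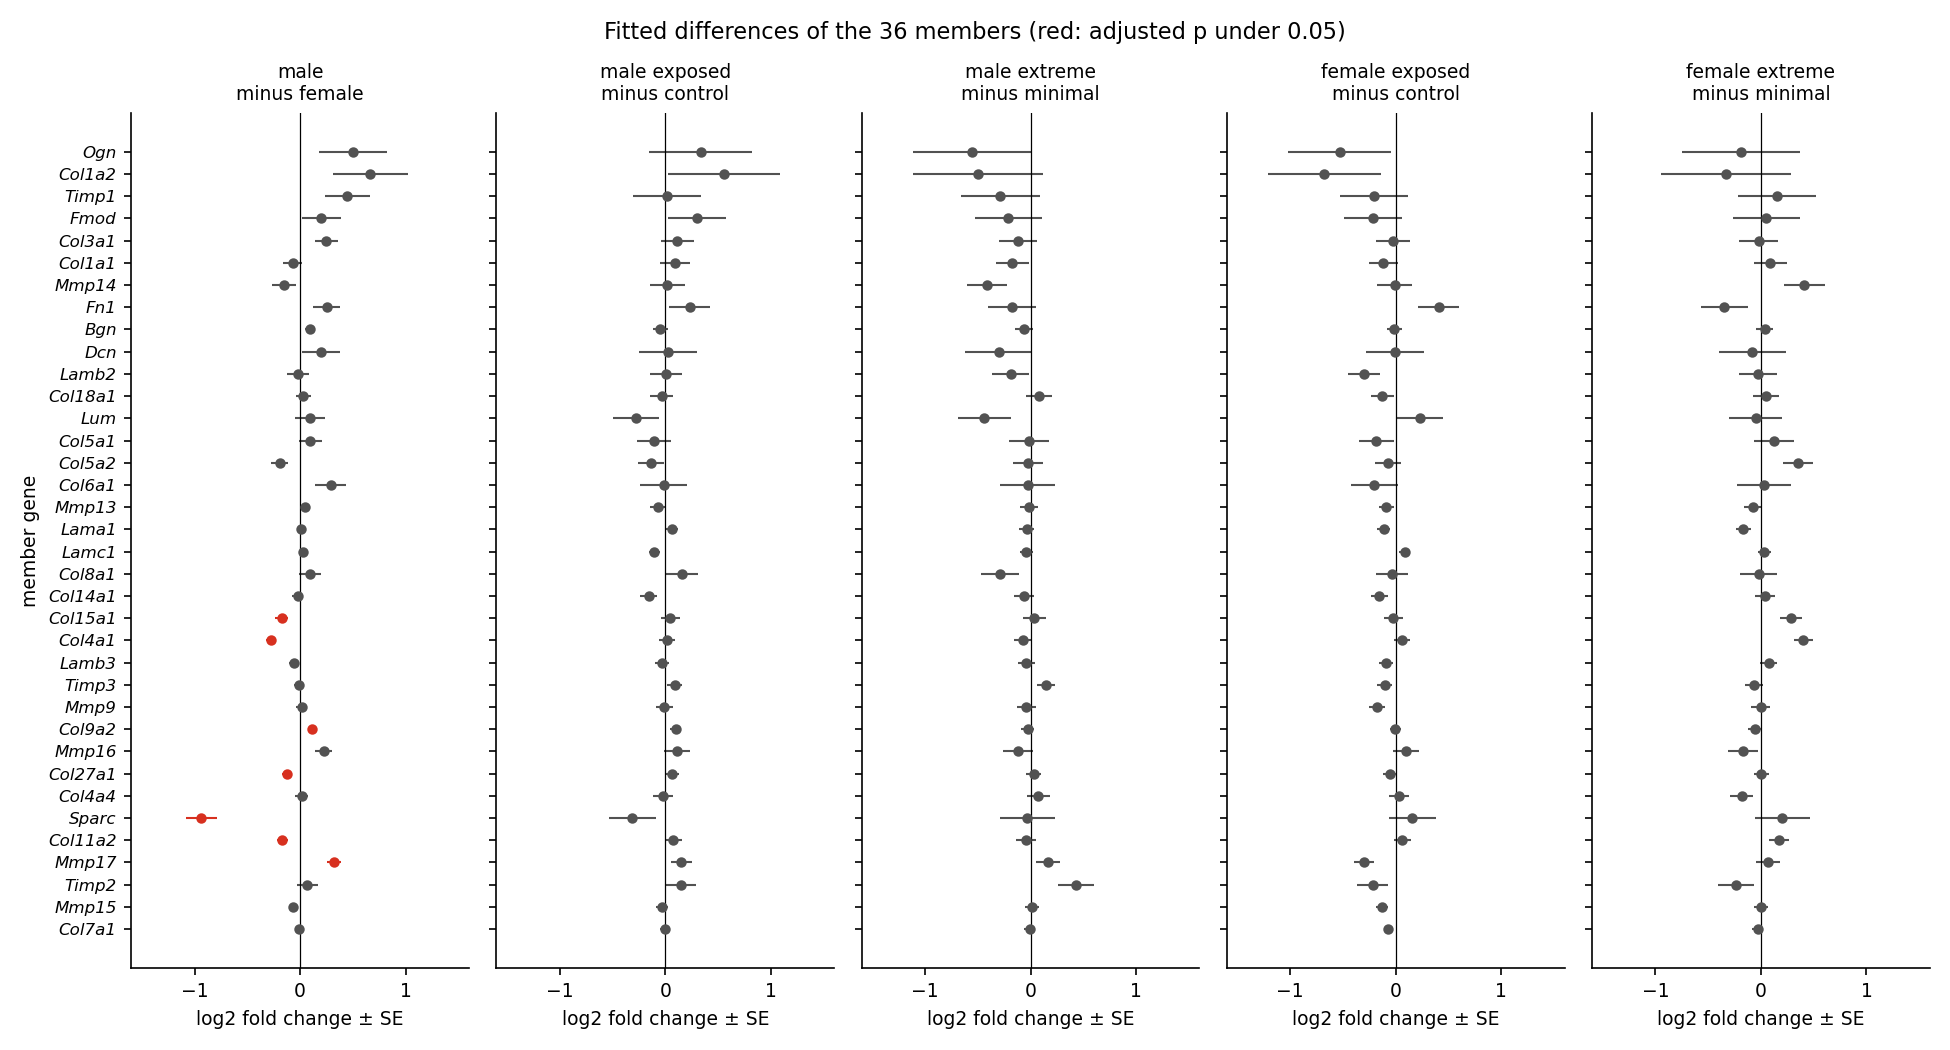
Fitted log2 fold change ± SE of each of the 36 genes in 5 comparisons, ordered as in the correlation plot, with red for adjusted p under 0.05. Red points stand in male minus female only; Col4a1 in female extreme minus minimal is at 0.40 with adjusted p = 0.0525.

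The sexes differed more. All females carry rat identifiers with an F and all males identifiers with an R. A difference between the sexes therefore cannot be told apart from one between these sets of rats or their dissections. Of the 36 genes, 7 passed in male minus female, 2 higher and 5 lower in males, where 19.2% of all probes passed, 8.99% higher and 10.2% lower, so the count is near the background. Sparc read 9.65, 10.31, 9.37, 9.52 and 10.20 in male extreme, 9.43, 9.92, 9.74, 10.15 and 9.98 in male minimal and 10.07, 9.96, 11.00, 9.84 and 9.81 in male control rats. In females it read 11.04, 11.45, 11.45, 10.78 and 10.39 in extreme, 11.13, 10.90, 11.28, 9.98 and 10.80 in minimal and 10.12, 10.59, 10.96, 10.98 and 11.17 in control rats. Of the 15 males, 10 were below every female, and male control 3 was high. Sparc averaged 9.93 ± 0.41 in males and 10.87 ± 0.44 in females (SD, n = 15 each), a difference of -0.94 ± 0.15 (adjusted p = 0.000171). Within the lower array state it was -1.18 (6 males, 8 females) and within the higher -0.74 (9 males, 7 females).

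Glial and regional markers moved with Sparc. The oligodendrocyte precursor mean (5 of 6 markers) correlated with Sparc at r = 0.75 (rho = 0.74, permutation p = 2e-05 and 3e-05, adjusted p = 0.00078 and 0.00108), the oligodendrocyte mean at 0.63, the thalamus mean at 0.60 and the hypothalamus mean at 0.64. In males the precursor mean ran from -0.48 to 0.09, against -0.27 to 0.62 in females, a difference of -0.455 (permutation test, adjusted p = 4.33e-05 over 13 lists). The thalamus mean (7 of 9 markers) ran from -0.78 to -0.39 in males, against -0.66 to 2.38 in females, a difference of -1.16 (adjusted permutation p = 4.33e-05). The oligodendrocyte mean (10 of 11) differed by -1.17 (adjusted permutation p = 0.00331), the hypothalamus mean by -0.593 (0.00767) and the choroid plexus mean by -0.533 (4.33e-05). The part of these lists in the Sparc difference was not tested. The meningeal, endothelial and mural means differed by 0.162, -0.0476 and 0.0145, and none of these 3 passed (adjusted permutation p = 0.382, 0.371 and 0.771).

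**Figure D5:**
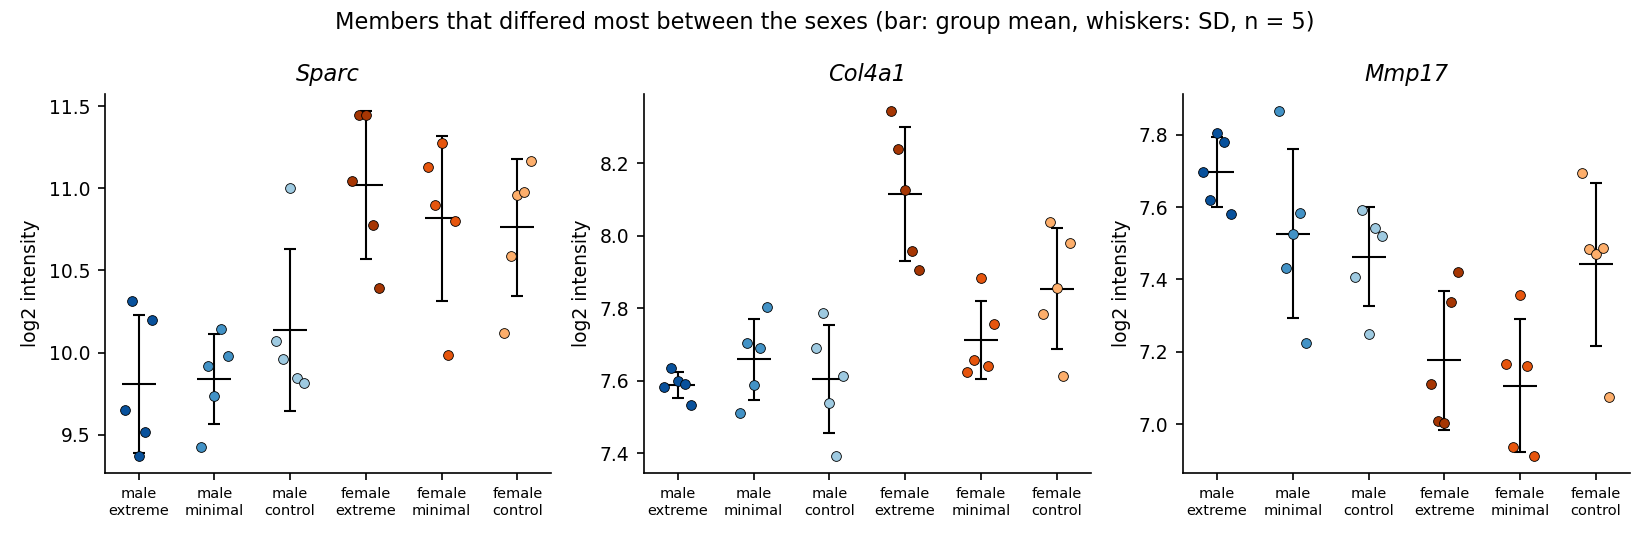
Log2 intensity of Sparc, Col4a1 and Mmp17 in each rat (points) by group, with the group mean (bar) and SD (whiskers, n = 5). Sparc averages 9.93 in males against 10.87 in females, Col4a1 is highest in female extreme rats, and Mmp17 averages 7.56 in males against 7.24 in females.

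Col4a1, the values of which are given above, averaged 7.62 ± 0.11 in males and 7.89 ± 0.23 in females (SD, n = 15 each), a difference of -0.28 ± 0.05 (adjusted p = 0.00048). The difference was -0.31 within the lower and -0.26 within the higher array state, and 9 males were below every female. Mmp17 averaged 7.56 ± 0.18 in males and 7.24 ± 0.24 in females, a difference of 0.32 ± 0.07 (adjusted p = 0.00133), with 0.41 and 0.30 within the lower and higher states. Its male values ran from 7.23 to 7.87 and its female values from 6.91 to 7.69, with 4 males above every female. With the meningeal mean in the fit, 12 of the 36 passed in male minus female, where 17.5% of all probes did.

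The other 4 sex differences were smaller. Col9a2, a chain of the fibril-associated collagen IX, read 7.07, 7.19, 6.94, 7.05 and 7.21 in male extreme, 7.20, 7.22, 7.10, 7.05 and 7.02 in male minimal and 7.08, 7.06, 7.04, 6.98 and 6.89 in male control rats. Col9a2 in females read 6.94, 6.87, 6.87, 6.93 and 7.02 in female extreme, 6.96, 7.02, 6.84, 7.06 and 7.05 in female minimal and 7.02, 6.89, 7.01, 6.99 and 6.89 in female control rats. The sexes overlapped near the array median. It averaged 7.07 ± 0.10 in males and 6.96 ± 0.07 in females, a difference of 0.12 ± 0.03 (adjusted p = 0.0191). Col11a2, a minor fibrillar chain, read 7.31, 7.47, 7.65, 7.74 and 7.76 in male extreme, 7.57, 7.78, 7.70, 7.55 and 7.55 in male minimal and 7.40, 7.59, 7.53, 7.72 and 7.43 in male control rats. Its values in females were 7.80, 7.83, 8.01, 7.96 and 7.68 in female extreme, 7.76, 7.85, 7.53, 7.66 and 7.64 in female minimal and 7.49, 7.57, 7.94, 7.76 and 7.78 in female control rats. Males and females overlapped, and the difference was -0.17 ± 0.05 (adjusted p = 0.0244).

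Col27a1, another fibrillar chain, read 7.34, 7.33, 7.37, 7.42 and 7.51 in male extreme, 7.50, 7.36, 7.45, 7.10 and 7.42 in male minimal and 7.23, 7.39, 7.30, 7.40 and 7.26 in male control rats. Females had Col27a1 at 7.57, 7.66, 7.37, 7.45 and 7.28 in female extreme, 7.48, 7.46, 7.60, 7.40 and 7.38 in female minimal and 7.47, 7.67, 7.49, 7.53 and 7.45 in female control rats. The sexes again overlapped, with a difference of -0.13 ± 0.04 (adjusted p = 0.0341). Col15a1, a collagen of the basement membrane zone, read 7.0, 6.93, 6.95, 7.13 and 6.78 in male extreme, 6.89, 6.99, 6.79, 6.99 and 6.95 in male minimal and 6.92, 6.83, 7.08, 6.94 and 6.70 in male control rats. Readings of Col15a1 in females were 7.10, 7.59, 7.56, 7.03 and 6.89 in female extreme, 6.93, 6.91, 6.99, 7.01 and 6.90 in female minimal and 7.01, 6.95, 7.09, 7.16 and 7.36 in female control rats. Female extreme 2 and 3 were the highest rats, and the difference was -0.17 ± 0.06 (adjusted p = 0.0463). Col15a1 was above the array median on 2 male and 7 female arrays, so it passed the filter through the females, where it is high, and its call rests on that filter. It correlated with the thalamus mean at r = 0.70, and its call was lost when any of 21 of the 30 arrays was left out. For Col27a1 this held for 7 arrays. Of the 36 genes, 11 had an unadjusted p under 0.05, as did 32.2% of all probes. The 4 that did not pass were Mmp16 (0.22 ± 0.08, adjusted p = 0.0536), Col5a2 (-0.19 ± 0.08, 0.0923), Col3a1 (0.25 ± 0.11, 0.0982) and Timp1 (0.45 ± 0.21, 0.148).

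Other matrix genes, fixed by list, gave 114 measured genes. In male minus female, 7 were higher and 20 lower, or 23.7%, against 19.2% of all probes. In exposed minus control females 1 was higher and 5 lower (5.26%, against 6.87%), and 0 passed in any of the 4 comparisons within males. P4ha1, a collagen prolyl hydroxylase, was lower in female extreme than in minimal rats (log2 difference -0.45 ± 0.08, adjusted p = 0.00384) and Hyal2, a hyaluronidase, was higher by 0.35 ± 0.06 (adjusted p = 0.00817). Cspg5, the proteoglycan neuroglycan C of neurons, was lower in exposed than in control females (-0.69 ± 0.10, adjusted p = 9.19e-05). That value is of the probe of higher mean of 2 for Cspg5, and the other probe is not shown. In male minus female, Hapln2, a link protein of oligodendrocytes, was at -1.56 ± 0.38 (adjusted p = 0.00477), Vcan, the proteoglycan versican, at -0.50 ± 0.07 (0.00011) and Lox, the collagen cross-linking enzyme, at -0.67 ± 0.20 (0.0216).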

How the data were processed

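The values are log2 intensities per probe, deposited by the authors, with range 6.38 to 15.06 and equal quartiles on all arrays, as after quantile normalization. How they were corrected and normalized is not stated in the sources used here. Per the labels' protocols, RNeasy kits gave total RNA, treated with DNase and turned into biotin-labelled cRNA. Another deposited table was not used, since its 60 column names match no sample.

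Of 22523 probes, 13793 carried 1 gene symbol, 0 several and 8730 none. Identifiers of 13752 probes matched the RefSeq GRCr8 table. The 6 group means were fitted with limma 3.58.1 in R 4.3.3 to 13308 probes, with 24 residual degrees of freedom and Benjamini-Hochberg adjustment (threshold 0.05). The members, lists and settings were chosen with earlier results of these data known. Named genes were those called, the 8 with the widest range of group means, and a fixed list, 21 in all. Other settings are given in the closing section. In simulated data for the female extreme minus minimal comparison (13308 probes), 87% of 100 probes changed by 1 on the log2 scale and 74% of 100 changed by 0.5 were recovered, with 7 false calls. The changed probes were picked at random and the noise was independent, so these shares do not carry over to genes of wide spread. In that comparison the SE was 0.62 for Col1a2 and 0.56 for Ogn, so a change of 1 could be missed there. Marker lists were means of measured markers. Deviations of same-numbered arrays correlated at 0.146 to 0.687 between female minimal and female extreme (mean 0.42, other numbers -0.10). As each was above 0.1, the number was taken to pair these 2 groups. That was read from the same values, since the number is only the order of listing and the labels give separate rats and no pairing. No other groups met this, and between female extreme and female control the values were -0.51 to -0.14, so elsewhere the block has no such basis.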

Additional observations from a re-analysis of the deposited data

Results flagged for a closer look

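Of 126 sets of 5 rats (21 genes in 6 groups), 7 held a rat apart from the others by a gap of more than 0.71 of the group's range, and chance gives about 1 in 20. Sparc was 11.00 in male control 3, against 10.07 in the next. Col1a2 was 11.27 and Fn1 9.82 in female extreme 2. Timp2 was 9.01 in male minimal 1, where Timp3 was low, at 6.90. Lum was 8.80 in female extreme 5, and Timp3 was 7.09 in female control 2.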

How the results depend on the processing

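Settings tried were no filter, a filter on the mean, centring of arrays, normexp background correction, array weights, robust variances with a trend, the replicate number as a block, the array state as a covariate, 1 sex only, each array left out and, added after seeing the data, the meningeal mean as a covariate. The neqc correction was not run, since its columns match no sample. No result reversed under the settings run. Without a filter 1 of 60 probes passed in female exposed, extreme and minimal each against control, namely Mmp2 (-0.22, -0.21 and -0.22, adjusted p = 0.0104, 0.0336 and 0.0442), whose mean of 6.80 is below the array median. In female extreme minus minimal 1 gene passed, Col4a1, with the mean filter (adjusted p = 0.0485), replicate block (0.042), array state (0.0487) and meningeal mean (0.0363). The replicate block was picked from the same values, so its p is no independent support. The block changed 1 other call, Col15a1 in male minus female (adjusted p = 0.0541), which was also lost without a filter (0.0651), with centring (0.0503) and with array state (0.077). Col27a1 was lost with array state (0.0602). With the meningeal mean, 1 gene passed in female exposed and minimal minus control (Fn1), and 12 instead of 7 in male minus female. Leaving out 1 array gave 0 to 1 calls in the 4 female comparisons and in the sex difference of exposed minus control, 0 in the other sex difference and in the 4 male ones, and 5 to 9 in male minus female.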

Other observations

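With the meningeal mean in the fit, the male minus female differences that passed were, besides those of the 7 genes above, Col1a2 (0.31 ± 0.11, adjusted p = 0.046), Col3a1 (0.15 ± 0.05, 0.0391), Timp1 (0.24 ± 0.08, 0.0347), Col5a2 (-0.24 ± 0.07, 0.014) and Mmp14 (-0.24 ± 0.07, 0.0153). Over all probes 17.5% passed in that fit. The other type I and type V chains, Col1a1 (-0.15 ± 0.06, adjusted p = 0.0634) and Col5a1 (0.03 ± 0.09, 0.874), did not pass and had the opposite sign. Col1a1 averaged 7.13, near the array median, against 10.60 for Col1a2, so their signs are of probes at unlike levels. The fit with the meningeal mean was chosen after the values were seen.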
